A study of Caenorhabditis elegans with 2 samples.

Results

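The actin and tubulin genes of Caenorhabditis elegans examined here are act-1 to act-5, the alpha-tubulin genes tba-1 and tba-2, the beta-tubulin genes tbb-1 and tbb-2, and the gamma-tubulin gene tbg-1. They were taken by name, with earlier results of these data known, as 10 of the 19973 protein-coding genes on the chromosomes. For each gene, a window was drawn from 2 kb upstream of its first transcript start to the gene end, and every peak with its summit there was kept. Binding of the nuclear receptor NHR-41 was measured by ChIP-seq, in which sheared chromatin held by a chosen protein is pulled down with an antibody and its DNA is sequenced. The animals were whole L4 larvae, the last larval stage, of the strain RW12221, which carries the allele st12221[nhr-41::TY1::EGFP::3xFLAG] at the nhr-41 locus on chromosome IV. The tag was inserted by CRISPR and pulled down with an antibody against GFP. Larvae had been hatched after bleaching, held as starved L1 larvae and collected at 48.5 h. There was 1 group of 2 biological replicates, so the results are descriptions of peaks and of their spread between replicates.

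Actin polymerises into the thin filaments of muscle and into the cortex and microvilli of other cells. Alpha- and beta-tubulin pair into the subunits of microtubules, and gamma-tubulin sits in the complexes from which microtubules grow. In the worm, tba-1, tba-2, tbb-1, tbb-2 and tbg-1 are widely expressed, in dividing cells of the embryo and germline as well as in larval tissues. The near-identical actins act-1 to act-4 are abundant in muscle and are made in other cells too, while act-5 is the actin of intestinal microvilli and the excretory canal. NHR-41 is related to the vertebrate receptors TR2 and TR4. No expression was measured in these samples, so the classes rest on this background alone. In whole animals, binding in a few cells cannot be told apart from weak binding in many.

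The strongest NHR-41 peaks of the set stood in the windows of the widely expressed tubulin genes tba-1, tba-2 and tbb-1. Of the 10 genes, 5 had a summit of the conservative list in their window, namely tba-1, tba-2, tbb-1, act-3 and act-4, against 4.98% of all protein-coding genes (994 of 19973). The conservative list holds 1069 peaks that the authors called from both replicates by the irreproducible discovery rate (IDR), which scores how stable a peak's rank is. By class, these were 3 of the 5 widely expressed tubulins, 2 of the 4 muscle-rich actins, and not act-5. The other thresholded list made from both replicates kept the peaks of tba-1, tba-2 and tbb-1 and had no summit in the window of any actin, against 5.19% of all genes. In the list called from replicate 1 alone, 3 members had a summit, tba-1, tba-2 and act-5, against 1.70% of all genes. In that of replicate 2 alone all 5 tubulins had one and no actin did, against 3.33% of all genes. The windows of act-1 and act-2 held no summit of any of these lists. The genes were chosen with earlier results of these data known, so the shares of all genes are a reference and not a test.

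**Figure D1:**
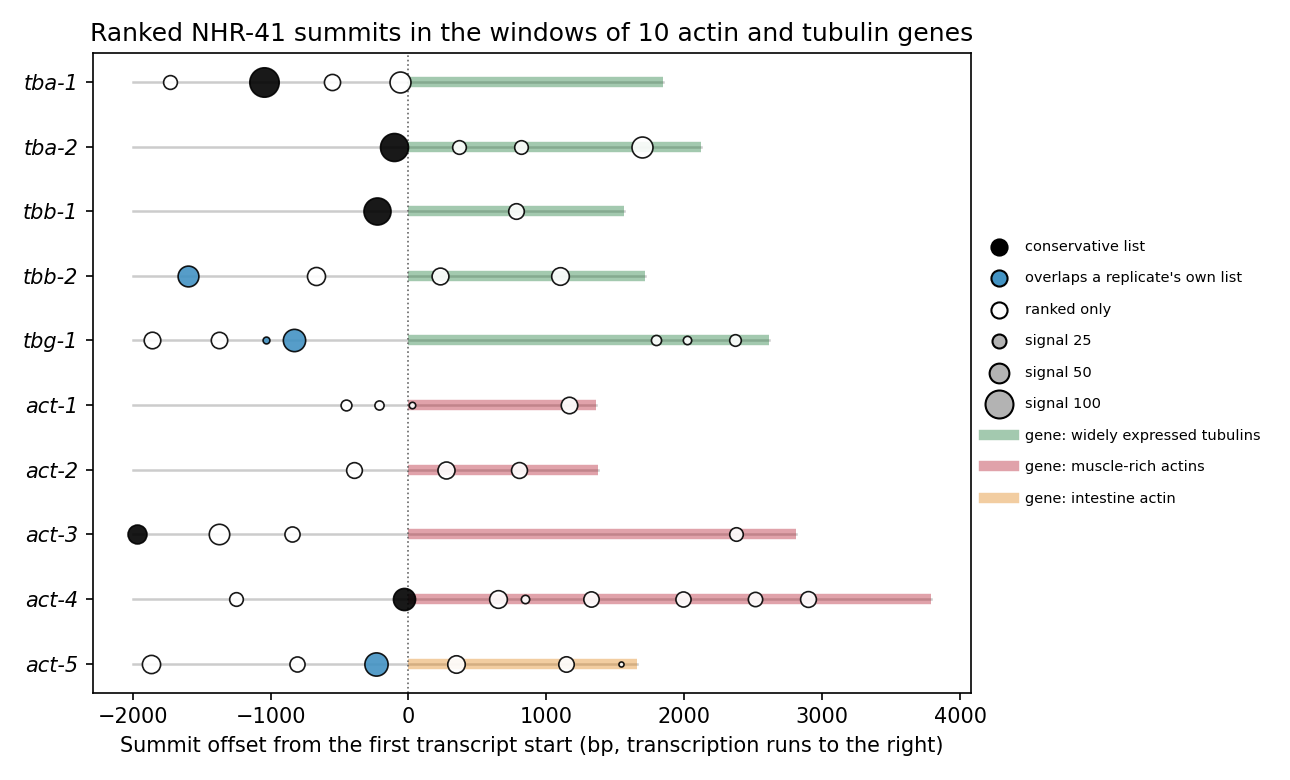
Ranked NHR-41 summits in the window of each gene, placed by their distance in bp from the first transcript start, with the gene body as a thick bar. The area of a circle is proportional to the pooled signal; filled black circles are conservative peaks, which stand at tba-1, tba-2, tbb-1, act-3 and act-4, and blue ones overlap a replicate's own thresholded list only.

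A longer list that ranks peaks down to low scores gave a fuller view of the same windows. It held 48276 peaks, including all 1069 conservative ones, and for each peak an IDR score capped at 1000, a pooled signal, and the signal of the matching peak in each replicate. The score of a conservative peak was at least 830. The 10 windows held 46 ranked summits over 40.9 kb, or 1.13 per kb, against 0.510 per kb over the windows of all protein-coding genes. Every member had at least 1 ranked summit, as did 77.8% of all genes. The density was 1.06 per kb in the widely expressed tubulins, 1.10 in the muscle-rich actins and 1.64 in act-5. The tubulins and the muscle-rich actins were thus close in how many ranked summits they held in this window. It was 0.970 in the tubulins and 1.32 in the muscle-rich actins with 500 bp upstream, and 0.889 and 1.23 with 5000 bp. In promoters alone it was 1.11 and 1.06. The medians of the strongest ranked summit stood farther apart. Its pooled signal had a median of 93.8 in the widely expressed tubulins, with a range of 55.3 to 111, and a median of 45.2 in the muscle-rich actins, with a range of 34.7 to 62.5. It was 69.1 in act-5, and its median over all protein-coding genes was 29.5. The ranges of the tubulins and the muscle-rich actins overlapped, because tbb-2 at 55.3 lay below act-4 at 62.5. The strongest summit lay nearer the start of another protein-coding gene at tba-1, tbb-1, tbb-2 and tbg-1. By position, those peaks cannot be given to the tubulin genes alone. At tba-2 and at each actin, the strongest summit lay nearest the gene's own start. With the window cut to 500 bp upstream, the median was 56.0 in the widely expressed tubulins, with a range of 17.3 to 100.1, 35.8 in the muscle-rich actins, with a range of 23.4 to 62.5, and 25.2 over all protein-coding genes. The median of the tubulins was then below the 69.1 of act-5. Genes are not replicates, so no test was applied to the classes.

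The beta-tubulin genes differed from each other in the position of their strongest peak. Both peaks were in replicate 2's own list and not in that of replicate 1. The replicate signals stood farther apart at tbb-2, where they may not be of the same site. The tbb-1 peak, at III 10742515 to 10742798 (genome build ce11, 1-based), had a pooled signal of 93.8 and a score of 1000, and ranked 347th by signal in the conservative list. Its signal was 38.5 in replicate 1 and 56.8 in replicate 2, a mean of 47.6 ± 13.0 (SD, n = 2). The summit lay 225 bp before the start of tbb-1 and 153 bp before that of rib-2, a glycosyltransferase gene of heparan sulphate synthesis that runs the other way, so it cannot be given to either gene by position. It is the strongest beta-tubulin summit, and 151 bp around it are shown in the direction of tbb-1, read from the RefSeq sequence of the assembly WBcel235 at chrIII:10742582-10742732.
tbb-1: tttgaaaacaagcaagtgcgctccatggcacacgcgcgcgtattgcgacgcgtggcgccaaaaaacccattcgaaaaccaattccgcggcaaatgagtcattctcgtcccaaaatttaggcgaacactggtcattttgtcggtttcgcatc
No letter is in capitals because none of the 6 motifs searched on both strands was found in it. These were AGGTCA, the half-site of many nuclear receptors, its longer form AAGGTCA, which contains it, the GATA factor site TGATAA, the E-boxes CAGCTG and CACGTG, and the TATA box TATAAA.

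The other beta-tubulin gene, tbb-2, had its strongest ranked peak 1597 bp upstream, with a pooled signal of 55.3 and a score of 379, under the threshold. Its signal was 18.3 in replicate 1 and 45.0 in replicate 2, so replicate 2 was 2.46 times as high, and the mean was 31.7 ± 18.9 (SD, n = 2). The replicate 1 peak paired with it had its summit 187 bp from the pooled summit, in a peak 284 bp wide, so the replicate values may not be of the same site. The same holds for replicate 1 at the strongest act-3 peak, 173 bp away, and for replicate 2 at that of act-2, 144 bp away, while the other summits of strongest peaks lay within 84 bp. Replicate 2's own list included the peak with a score of 831, just past the lowest score of 830. The nearest protein-coding start was that of snpc-3.4, 813 bp away. A further 3 ranked summits lay 671 bp before the tbb-2 start, in an intron and in a coding exon, with pooled signals of 41.5, 36.0 and 39.6.

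The alpha-tubulin genes had the highest signals, and their replicates were close. For tba-1 the conservative peak had a pooled signal of 111, with 51.2 in replicate 1 and 56.8 in replicate 2 (mean 53.99 ± 3.92, SD, n = 2). For tba-2 the pooled signal was 100.1, with 59.4 in replicate 1 and 49.2 in replicate 2 (mean 54.3 ± 7.22, SD, n = 2). Both peaks had a score of 1000, both were in each replicate's own list, and by signal they ranked 179th and 265th of the 1069 conservative peaks. The positions set them apart. The tba-2 summit lay 107 bp before the first tba-2 start, and the next protein-coding start, of the proteasome gene pbs-2, was 1378 bp away. The tba-1 summit lay 1045 bp before the first tba-1 start but 56 bp before the start of cox-5B, a cytochrome c oxidase subunit gene transcribed the other way. A second summit, 63 bp before the first tba-1 start, stayed under the threshold with a pooled signal of 56.0 and a score of 313. Its signal was 37.0 in replicate 1 and 19.8 in replicate 2. The tba-2 gene body held 3 more ranked summits, of which that in the coding exon 815 bp after the first start had a score of 743 at a pooled signal of 23.7. The replicate 2 peak matched to it had its summit 215 bp away. The same replicate 2 peak was matched to the summit 365 bp after the first start, so that score may partly reflect another site.

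The gamma-tubulin gene tbg-1 had 7 ranked summits and no conservative one. Its strongest, with a pooled signal of 63.6 and a score of 589, lay 830 bp before its start. The signal there was 21.4 in replicate 1 and 40.2 in replicate 2, with a mean of 30.8 ± 13.3 (SD, n = 2), and replicate 2's own list included it with a score of 853. That summit was 99 bp before the start of rpac-19, an RNA polymerase I and III subunit gene that lies between it and tbg-1 on the same strand. The ranked list holds a second entry beside it, with a pooled signal of 5.97, that shares the same pair of replicate peaks. The 3 summits inside tbg-1 were weak, with pooled signals of 8.91 to 17.3 and scores of 26.

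**Figure D2:**
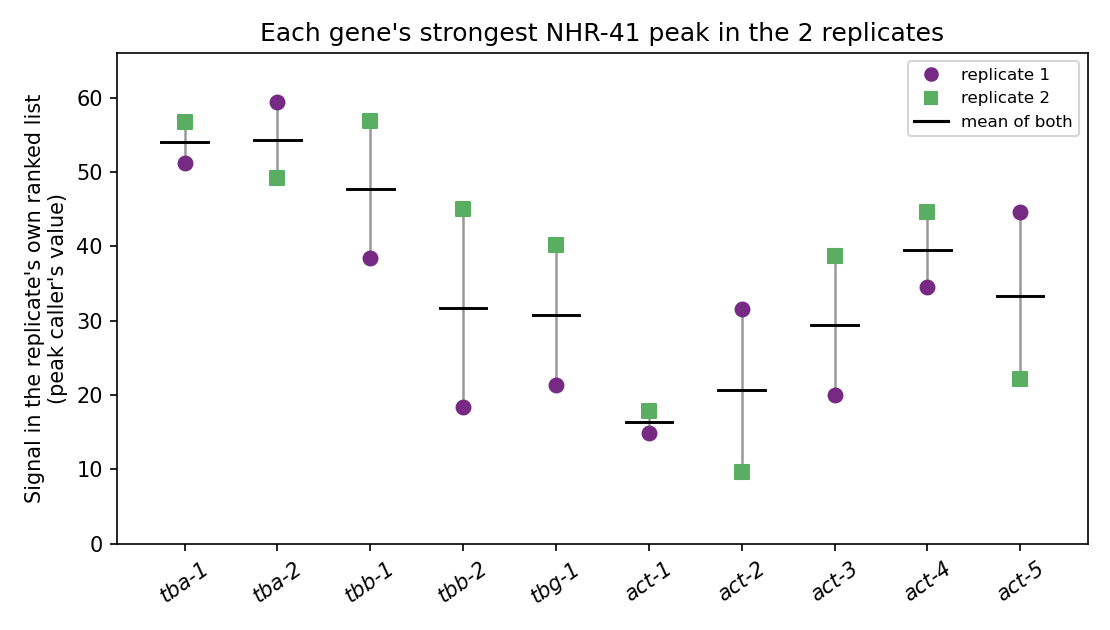
Signal of each gene's strongest ranked peak in the own ranked lists of replicate 1 (circles) and replicate 2 (squares), with the mean of both as a bar. The replicates of tba-1, tba-2, act-1 and act-4 lie within 1.29-fold of each other, while those of act-2 and tbb-2 differ by 3.26-fold and 2.46-fold in opposite directions. At act-2 and tbb-2, a paired replicate summit lay 144 bp and 187 bp from the pooled summit, so these values may not be of the same site. The act-1 values come from peaks with the lowest score of each replicate's ranked list.

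Among the actins, act-4 had the only conservative summit near its own start. The peak, at X 4960443 to 4960726, had a pooled signal of 62.5 and a score of 1000. The signal was 34.5 in replicate 1 and 44.7 in replicate 2, with a mean of 39.6 ± 7.18 (SD, n = 2). It ranked 961st of 1069 by signal, and neither replicate's own list nor the other thresholded list held it, which was so for 13.1% of conservative peaks (140 of 1069). The second ranked list of the series gave the same peak a score of 811. The summit lay 36 bp before the first transcript start, and the sequence around it is shown in the direction of act-4, from chrX:4960510-4960660, because a TATA box, in capitals, stands beside the summit.
act-4: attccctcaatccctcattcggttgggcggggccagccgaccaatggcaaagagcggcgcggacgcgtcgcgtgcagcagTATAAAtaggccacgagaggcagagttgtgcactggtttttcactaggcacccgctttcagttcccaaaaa
The box begins 31 bp before the annotated start. TATAAA was present on either strand in 8.61% of equal windows at all conservative summits and in the 151 bp before the first start of 25.5% of protein-coding genes. The act-4 gene body held 6 more ranked summits, 4 in introns and 2 in coding exons, with pooled signals of 8.87 to 40.0 and scores of 52 to 141.

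The intestinal actin act-5 had a pooled signal of 69.1 at its strongest peak, above act-4, but its score of 504 stayed under the threshold. The replicates differed, with 44.6 in replicate 1 and 22.2 in replicate 2 (mean 33.4 ± 15.8, SD, n = 2). Replicate 1's own list included it with a score of 933, while replicate 2's own ranked list gave it a score of 41. The summit lay 236 bp before the act-5 start, with the next protein-coding start, of shpk-1, 1718 bp away. The sequence around it, from chrIII:13606227-13606377 in the direction of act-5, is shown because it holds a GATA factor site, in capitals as TTATCA, the reverse complement of TGATAA. Transcription factors of the elt family, which bind such sites, direct intestinal genes in the worm.
act-5: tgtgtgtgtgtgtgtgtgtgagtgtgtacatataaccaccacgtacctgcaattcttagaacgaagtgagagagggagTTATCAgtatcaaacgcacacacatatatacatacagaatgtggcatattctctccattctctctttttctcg
The site begins 233 bp before the act-5 start and 3 bp from the summit. TGATAA was present on either strand in 22.7% of equal windows at all conservative summits and in 18.0% of promoter windows of that length. Within 75 bp of the strongest summit, act-5 was the only member of the 10 with it. The receptor half-site AGGTCA was found at tba-2 alone, and at 10.2% of conservative summits and 4.55% of promoters.

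The remaining actins stand in a cluster on chromosome V, with strongest pooled signals from 34.7 to 53.4. These all lay above the median over all protein-coding genes (29.5). Only act-3 at 53.4 was just below the lowest of the widely expressed tubulins (55.3 at tbb-2), while act-2 at 36.9 and act-1 at 34.7 were farther below. The replicate values of act-3 and tbb-2 overlapped. With 500 bp upstream, tbg-1 became the lowest tubulin at 17.3, below the lowest actin, act-3 at 23.4. The other tubulins, the lowest being tbb-2 at 39.6, still lay above the actins of the cluster, the highest being act-2 at 36.9. The conservative peak counted for act-3, at V 11076326 to 11076609, lay 1970 bp upstream of the first act-3 start, near the edge of its window and past the 3' end of act-2. Its pooled signal was 45.7, ranked 1013th of 1069. The replicate values were close, with 34.2 in replicate 1 and 37.7 in replicate 2 (mean 35.9 ± 2.53, SD, n = 2). Their summits lay 89 bp and 127 bp from the pooled summit, and another entry of the ranked list shares the same pair of replicate peaks. The replicate values may therefore not be of the same site as the pooled summit. Replicate 1's own list held an overlapping peak with a score of 851, whose summit, 2059 bp upstream, fell outside the window. The second ranked list gave the pooled peak a score of 56 in place of 1000. A stronger ranked peak at act-3, 1372 bp upstream, had a pooled signal of 53.4 and a score of 485, with 20.0 in replicate 1 and 38.8 in replicate 2 (mean 29.4 ± 13.3, SD, n = 2). For act-2 the strongest peak had a pooled signal of 36.9 and a score of 51, with 31.6 in replicate 1 and 9.70 in replicate 2 (mean 20.7 ± 15.5, SD, n = 2). For act-1 the signal was 34.7 and the score 123, with 14.9 in replicate 1 and 17.8 in replicate 2 (mean 16.4 ± 2.04, SD, n = 2). The own ranked lists of replicates 1 and 2 gave the act-1 peak scores of 15 and 19, their lowest. The strongest peaks of act-1 and act-2 lay in coding exons. The ranked summits before the act-1 start reached a pooled signal of 14.97 at most.

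Some peaks inside the coding exons of act-1 to act-4 are uncertain, because these genes are near copies. The coding sequences of act-1 and act-3 were identical over 1128 bp, that of act-2 was 96.2% and that of act-4 94.1% identical to act-1, and that of act-5 was 83.9%. None of the 31-base words in the coding exons of act-1 or act-3 occurred only once in the genome, against 53.5% in act-2, 76.1% in act-4, 97.2% in act-5, and 95.4% to 100% in the tubulins. Upstream, 100% of such words were unique in each of these genes except act-5, with 98.2%. Reads wholly within act-1 or act-3 coding sequence could match both genes, and the sources used here do not say how such reads were treated. The part of such reads in the signals of act-1 and act-2 was not tested. The strongest peak of act-1 had 33.1% unique words and that of act-2 had 92.5%, while each peak at act-5 had 100%. The conservative peaks of tba-1, tba-2, tbb-1 and act-3 had 100%, and that of act-4 had 99.2%.

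**Figure D3:**
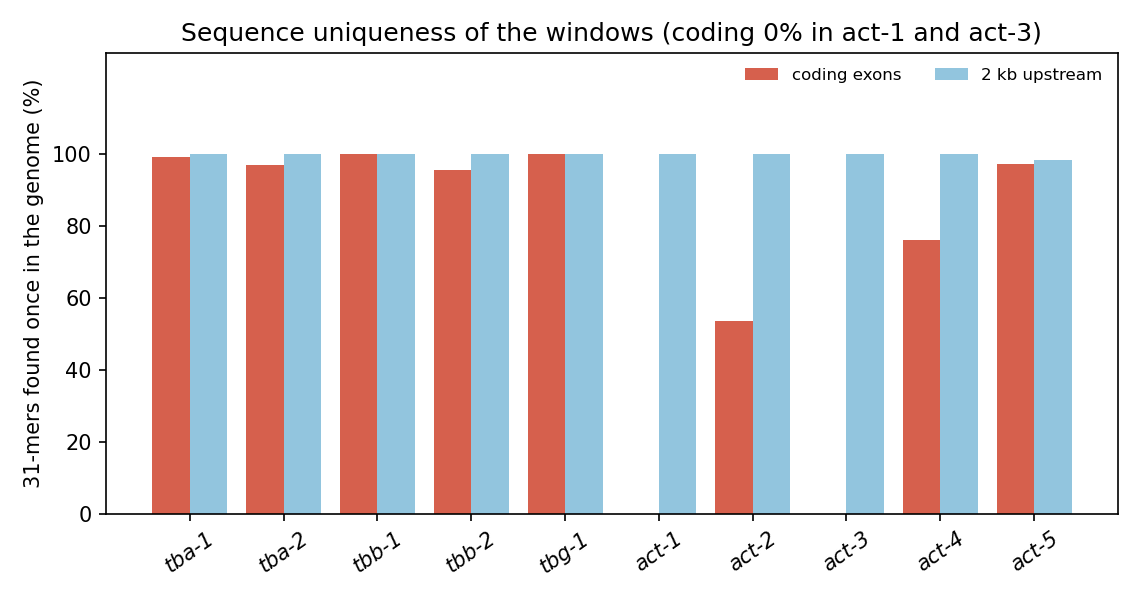
Share of 31-base words found only once in the genome, in percent, in the coding exons (red) and the 2 kb upstream (blue) of each gene. The coding exons of act-1 and act-3 stand at 0%, while the upstream sequence stands at 98.2% or above in each gene.

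Ordered by the mean of the replicates at the strongest peak, the members ran from tba-2 (54.3) and tba-1 (53.99) through tbb-1 (47.6), act-4 (39.6), act-5 (33.4), tbb-2 (31.7), tbg-1 (30.8) and act-3 (29.4) to act-2 (20.7) and act-1 (16.4). In each of the 9 neighbouring pairs, the gap between means was smaller than the larger SD of the pair, and the replicates' values overlapped. At the ends of this order, the replicates of tba-1 and tba-2 ran from 49.2 to 59.4 and those of act-1 and act-2 from 9.70 to 31.6. These genes were picked by the same values, so the gap follows from the ordering and is no test. The act-2 value of 9.70 came from a summit 144 bp from the pooled one, and the act-1 peak had 33.1% unique words. The tba-1 summit lay 56 bp from the cox-5B start. Replicate 2 was higher at the strongest peak of 7 of the 10 members and replicate 1 at that of 3, which were tba-2, act-2 and act-5. Compared with all protein-coding genes, whose windows differ in length, the strongest pooled signal of a member exceeded that of 99.0% of genes for tba-1, 98.6% for tba-2 and 98.3% for tbb-1. The share was 94.4% for tbg-1 and 91.6% for tbb-2. It was 95.6% for act-5, 94.1% for act-4, 90.8% for act-3, 70.6% for act-2 and 65.0% for act-1.

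**Figure D4:**
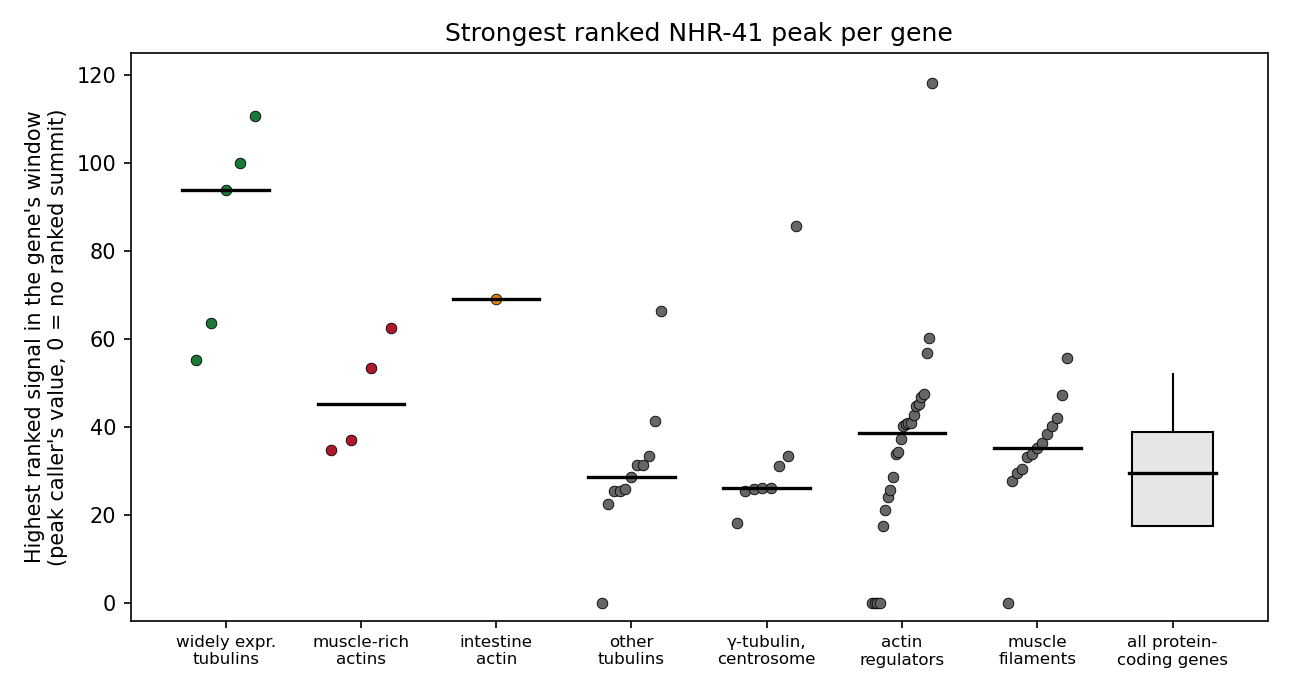
Pooled signal of the strongest ranked peak in each gene's window, by class, with the median as a bar; 0 stands for no ranked summit. The box at the right gives the quartiles over all protein-coding genes and its line the 90th percentile, and the median is 93.8 in the widely expressed tubulins and 29.5 over all genes, while those of the other tubulins and of the gamma-tubulin and centrosome genes are lower, at 28.7 and 26.2.

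Tubulin genes outside the set were examined in the same kind of window. Of 11 such genes none had a conservative summit, against 4.98% of all protein-coding genes, which over so few genes is no difference that can be read. The median of their strongest ranked signal was 28.7, against 29.5 over all protein-coding genes. Among them, 7 serve few cell types, such as mec-7 and mec-12 in touch receptor neurons and tbb-4, tba-5, tba-6 and tba-9 in ciliated sensory neurons. The strongest ranked signal was 41.3 at tba-9, 33.3 at ben-1, 31.3 at tba-5, 28.7 at mec-12, 25.5 at tba-6 and 25.4 at mec-7, and the tbb-4 window held no ranked summit. The highest of the 11 was tba-7 at 66.4, within the range of the widely expressed tubulins, and the other thresholded list included it.

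Genes that work with actin and tubulin were counted in the same way, beside the share of 4.98% of all protein-coding genes with a conservative summit. Of 8 genes of the gamma-tubulin complex and the centrosome, only spd-5, the scaffold of the pericentriolar material, had a conservative summit (85.6), 274 bp after its first start. Of 24 actin regulators found in the annotation, only fli-1, a gelsolin-family gene, had one (118), and that summit lay 5210 bp inside the gene, nearest to the start of pgl-2. None of 13 muscle filament genes, among them the myosin heavy chain genes unc-54 and myo-3 and the paramyosin gene unc-15, had one, and the median of their strongest ranked signal was 35.2. It was 38.7 for the actin regulators and 26.2 for the gamma-tubulin and centrosome genes. Over so few genes, none of the counts in these lists is a difference from 4.98% that can be read.

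Position set how far the conservative count could be given to the genes themselves. With the window cut to 500 bp around any start of the gene, 3 of the 10 members had a conservative summit, tba-2, tbb-1 and act-4, against 2.08% of all genes. The tbb-1 summit was nearer the start of rib-2, at 153 bp against 225 bp, and cannot be given to either gene by position. Only at tba-2 and act-4 was the conservative summit nearest the gene's own start. Among windows of 3 to 6 kb, the range that holds all 10 members, 3.97% of genes had a conservative summit. Of the 46 ranked summits at the members, 23 lay upstream and 23 in the genes, of which 14 were in coding exons, 8 in introns and 1 in a 3' UTR. The strongest peak was upstream at 8 of the 10 genes and in a coding exon at act-1 and act-2. No tRNA, snRNA or snoRNA gene lay within 500 bp of any thresholded member summit. The windows of act-1 and act-2 shared 1103 bp, which held no ranked summit, and no other pair of members shared sequence.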

How the data were processed

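Peak lists on build ce11 were deposited by the authors for 2 biological replicates, from sonicated chromatin of 200 to 800 bp per the labels. Per the sample notes in the files, the lists derive from replicate alignments and a control alignment; the sources used here name no aligner, peak caller or version. The deposited score of each peak is an IDR score capped at 1000. The deposited signal of each peak is the peak caller's value, and the sources do not state its scale or reference. Replicate signals came from each replicate's own ranked list, and their mean and SD from 2 columns of the ranked list that carry no replicate number; 6 further columns of such signals were not used. Lists of the replicates held 347 and 676 peaks. Read depth is unknown, so no value carries a counting limit. Gene models were those of Ensembl release 115 for WBcel235, the same assembly as ce11, and 0 peaks lay outside its chromosomes. Scripts used Python 3.11.15, pandas 2.3.3 and Biopython 1.88, and were checked on simulated data. Members, classes and lists were chosen with earlier results of these data known. All members are named; of other lists, up to 4 genes with the strongest conservative peak, and further genes were chosen after their values were seen. Of 25 actin regulators fixed, tmd-1 was not matched. No test was applied.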

Additional observations from a re-analysis of the deposited data

How the results depend on the processing

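The 5 members with a conservative summit became 3 with 500 or 1000 bp upstream, with summits within 500 bp of a transcript start (added after the data were seen) and in the other thresholded list. The lists of 1 replicate alone gave 3 and 5 members, with 3 and 5 summits. The 5 conservative summits were also 3 with 500 or 1000 bp upstream and in the other thresholded list. Counts with 5000 bp upstream, with a 1 bp overlap and at a score of 1000 were within 1.5 times. The 46 ranked summits were 29 in promoters alone. The share of all genes with a conservative summit, 4.98%, was 3.22% with 500 bp, 3.91% with 1000 bp and 7.84% with 5000 bp upstream. It was 5.29% with any overlap, 3.89% in promoters alone, 3.64% at a score of 1000, 2.08% within 500 bp of a start, 3.97% for windows of 3 to 6 kb, and 1.70% to 3.33% in the lists of 1 replicate. The density at act-5 was 0.902 per kb with 5000 bp upstream. With windows of 100 bp to each side, TGATAA was present at 4 members rather than 1. The median strongest signal of the widely expressed tubulins, 93.8, was 56.0 with 500 bp and 63.6 with 1000 bp upstream (added after the data were seen), against 35.8 in the muscle-rich actins in both. Of 50 alternatives for a member's strongest pooled signal, 43 lay within 1 SD of the replicates. That SD is of the replicate signals, which were lower than the pooled signal, and many alternatives kept the same peak. The count is therefore no measure of stability, and tbb-2 at 39.6 with 500 bp upstream still counted as within. With 500 bp upstream, the strongest signal was 56.0 at tba-1, 23.4 at act-3 and 17.3 at tbg-1. Depth is unknown, and with 2 replicates an SD is itself imprecise. No paired analysis was possible because there is 1 group.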
